A study of Mus musculus with 6 samples.

Results

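The 10 genes described here encode enzymes of serine synthesis and of folate-dependent one-carbon metabolism, together with the ATF4 stress axis that acts on them. Phgdh, Psat1 and Psph stand for serine synthesis, Shmt1, Shmt2, Mthfd1 and Mthfd2 for one-carbon metabolism, and Asns, Atf4 and Ddit3 for the stress axis. They were chosen for these roles and matched by symbol, out of 22800 symbols, with earlier results of these data known. Each of the 10 had a single entry in all 6 libraries, and 10 of 10 passed the filter on low values (a mean of at least 0.5 FPKM), as did 11621 symbols in all. FPKM are fragment counts scaled to transcript length and to the mapped total of the library, so levels can be compared between genes.

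RNA was sequenced from 2 forms of 1 line of murine oviductal epithelial (MOE) cells, which was pooled from several oviducts of 8-week-old female outbred CD1 mice. MOE HIGH cells were the serially passaged, experimentally aged form, sampled at passages 90, 103 and 113, and MOE LOW cells were the early form, sampled at passages 8, 9 and 10. Both forms carried no introduced oncogene. They grew in the same medium with serum, epithelial growth factor, insulin, transferrin, selenite, estradiol, glutamine, gentamycin, ribonucleosides and deoxynucleosides. The 3 libraries of a form were separate passages of that 1 line, so p-values measure the spread between passages and not between animals, and culture time cannot be told apart from any other change that the line went through.

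In cells, PHGDH, PSAT1 and PSPH convert the glycolytic intermediate phosphoglycerate to serine. SHMT1 in the cytosol and SHMT2 in mitochondria move a carbon from serine to tetrahydrofolate, and the MTHFD enzymes carry it between oxidation states for the synthesis of purines, thymidylate and methionine. ATF4 is a bZIP transcription factor whose translation increases when eIF2-alpha is phosphorylated under amino acid shortage or stress of the endoplasmic reticulum (ER), and its known targets include Asns, Ddit3 and the serine and mitochondrial folate genes.

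The promoters of 4 of these genes are printed because they hold the letters discussed here and stand on both sides of the test: Phgdh and Shmt1 were higher in MOE HIGH, and Mthfd2 and Asns did not pass. Each run is the 250 bases before the RefSeq start on GRCm38.p6, read 5′ to 3′ on the strand of the gene. Capitals mark CCAAT on either strand, or TGATGNAA, the C/EBP-ATF response element.
Phgdh, chr3:98339970-98340219, minus strand: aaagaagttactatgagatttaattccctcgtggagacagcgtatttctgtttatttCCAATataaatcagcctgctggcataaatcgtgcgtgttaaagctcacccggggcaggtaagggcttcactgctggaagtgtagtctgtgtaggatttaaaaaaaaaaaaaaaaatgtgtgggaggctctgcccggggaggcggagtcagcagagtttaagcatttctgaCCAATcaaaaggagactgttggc
Shmt1, chr11:60811266-60811515, minus strand: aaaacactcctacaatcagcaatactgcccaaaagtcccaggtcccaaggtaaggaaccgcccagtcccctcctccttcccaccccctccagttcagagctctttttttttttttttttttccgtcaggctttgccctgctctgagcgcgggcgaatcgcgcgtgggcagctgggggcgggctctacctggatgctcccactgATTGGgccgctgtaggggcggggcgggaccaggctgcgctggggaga
Mthfd2, chr6:83317605-83317854, minus strand: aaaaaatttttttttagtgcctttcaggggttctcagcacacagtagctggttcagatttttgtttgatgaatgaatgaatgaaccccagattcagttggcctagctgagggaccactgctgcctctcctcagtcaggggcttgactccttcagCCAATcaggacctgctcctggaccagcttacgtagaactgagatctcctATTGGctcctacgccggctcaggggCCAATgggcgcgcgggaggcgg
Asns, chr6:7693210-7693459, minus strand: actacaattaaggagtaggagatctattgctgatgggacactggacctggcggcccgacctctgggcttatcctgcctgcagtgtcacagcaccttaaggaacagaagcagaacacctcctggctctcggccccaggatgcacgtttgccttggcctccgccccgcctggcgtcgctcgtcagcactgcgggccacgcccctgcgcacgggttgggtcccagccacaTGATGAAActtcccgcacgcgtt

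A RefSeq promoter was found for 10 of 10 genes, with 11 starts in all because Psat1 had 2. TGATGNAA was searched on both strands and was present in 1 of 10 genes, Asns, at bases -23 to -16 from the start, against 3.91% of 27025 genes with a RefSeq promoter. CCAAT was present in 8 of 10 genes (all but Shmt2 and Asns), against 37.5% of genes. GGGCGG, the GC box, was present in 5 of 10 genes against 35.4% of genes, and the E-box CACGTG in 0 of 10 against 6.86%. These matches describe the letters in this window, and GENCODE places the outermost start of several genes elsewhere, outside the window for Psat1, Shmt1, Mthfd1 and Mthfd2.

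Of the 10 genes, 5 were higher in MOE HIGH than in MOE LOW, none (0) was lower, and the other 5 missed the threshold. The test was limma on log2(FPKM + 1), with p-values adjusted by Benjamini-Hochberg over all 11621 tested genes at 0.05, and it called 24.3% of all tested genes higher and 56.4% in either direction. Of all calls 43.1% were higher (2826 against 3734 lower), and after quantile normalization 56.7% were (4022 against 3071). At an unadjusted limma p under 0.05, 6 of the 10 were higher, Mthfd2 among them, and 0 were lower. Genes called at the adjusted threshold also meet this looser one, so at least 24.3% of all tested genes were higher at it. The 5 higher genes were Phgdh, Psat1, Shmt1, Shmt2 and Mthfd1. In the same 5 genes the groups did not overlap, as in 64.0% of all tested genes in either direction and 28.5% with MOE HIGH above. The median log2 fold change of the 10 genes was 0.54 (range -0.88 to 1.35), beside a median of -0.05 over all tested genes, of which the middle 50% lay between -0.55 and 0.36. Without passage 8 of MOE LOW, 7 of the 10 genes passed as higher, with Mthfd2 and Atf4 added. The calls over all tested genes also moved, with 2212 to 3318 higher when 1 library at a time was left out. Against a change of at least 2-fold, 0 of the 10 passed, and this stricter test called 2.61% of all tested genes higher and 7.80% lower.

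**Figure D1:**
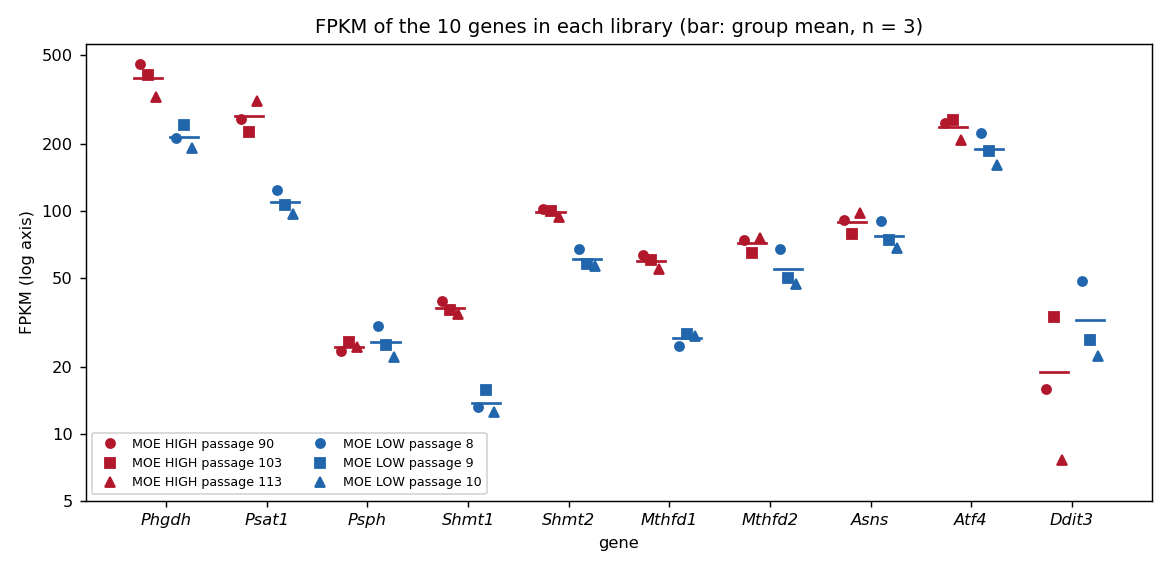
FPKM of the 10 genes (log axis) in each of 6 libraries, MOE HIGH in red left of MOE LOW in blue, with a bar at each group mean (n = 3). The groups stand apart for Phgdh, Psat1, Shmt1, Shmt2 and Mthfd1, and the points of the other 5 genes overlap.

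Phgdh, the gene of the committing enzyme of serine synthesis, was the most abundant of the 10 in both groups. Its locus is on chromosome 3 of mm10 (GENCODE, 98313170 to 98339990, minus strand). Its level was 455.8, 404.4 and 324.6 FPKM at passages 90, 103 and 113 of MOE HIGH, against 212.7, 241.5 and 190.3 FPKM at passages 8, 9 and 10 of MOE LOW. Every MOE HIGH library was above every MOE LOW library, although passage 113 was well below passage 90. The means were 394.9 ± 66.1 FPKM in MOE HIGH and 214.9 ± 25.7 FPKM in MOE LOW (SD, n = 3 each), a ratio of 1.84. The log2 fold change was 0.87 (SE 0.16, limma adjusted p = 0.0021).

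Psat1 encodes the aminotransferase that follows PHGDH. The locus is on chromosome 19 (15904678 to 15947337, minus strand). Psat1 was at 257.4, 225.9 and 310.4 FPKM in MOE HIGH, against 124.2, 106.1 and 97.0 FPKM in MOE LOW. The lowest MOE HIGH library, passage 103, was still above the highest MOE LOW library, passage 8. The means were 264.5 ± 42.7 FPKM in MOE HIGH and 109.1 ± 13.8 FPKM in MOE LOW, a ratio of 2.43, and the log2 fold change was 1.27 (SE 0.15, limma adjusted p = 0.00023). Most of the tested genes on its chromosome were also higher in MOE HIGH, 243 of 370 (65.7%), with a median log2 fold change of 0.68. Of the 20 tested genes that flank Psat1, 12 were higher and 1 was lower (median 0.53). On the chromosomes of the other 9 genes, 17.8% to 21.8% of tested genes were higher. Whether the number of copies of chromosome 19 differed between the groups was not tested.

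Psph, the phosphatase of the last step to serine, did not pass the test. The gene lies on chromosome 5 (129765558 to 129787449, minus strand). Psph was at 23.5, 25.7 and 24.4 FPKM in MOE HIGH, against 30.4, 24.9 and 22.1 FPKM in MOE LOW. The MOE HIGH libraries fell within the range of the MOE LOW libraries. The log2 fold change was -0.06 (95% interval -0.36 to 0.24, limma adjusted p = 0.71), so the interval left out a change of the size seen for Phgdh or Psat1. Psph shares 452 exonic bases with Cct6a on the opposite strand, which reached 322.1 FPKM, and whether the counting used strand was not stated.

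Shmt1 showed the largest log2 fold change of the 10 genes and was the least abundant of them in MOE LOW. It encodes the cytosolic serine hydroxymethyltransferase and lies on chromosome 11 (60788104 to 60811718, minus strand). Its level was 39.4, 35.8 and 34.5 FPKM in MOE HIGH, against 13.2, 15.6 and 12.5 FPKM in MOE LOW. Every MOE HIGH library was far above the highest MOE LOW library, passage 9. The means were 36.6 ± 2.55 FPKM in MOE HIGH and 13.8 ± 1.64 FPKM in MOE LOW, a ratio of 2.65, and the log2 fold change was 1.35 (SE 0.12, limma adjusted p = 4.2e-05).

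Shmt2 encodes the mitochondrial form and lies on chromosome 10 (127517123 to 127522444, minus strand). Shmt2 was at 101.4, 100 and 93.7 FPKM in MOE HIGH, against 67.0, 57.9 and 56.4 FPKM in MOE LOW. The MOE HIGH libraries lay close together and above all MOE LOW libraries. The means were 98.4 ± 4.06 FPKM in MOE HIGH and 60.4 ± 5.74 FPKM in MOE LOW, a ratio of 1.63, and the log2 fold change was 0.70 (SE 0.10, limma adjusted p = 0.0008).

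Mthfd1, the trifunctional cytosolic folate enzyme, rose as well. Its locus is on chromosome 12 (76255298 to 76319803, plus strand). Its level was 63.0, 60.3 and 54.7 FPKM in MOE HIGH, against 24.8, 27.9 and 27.5 FPKM in MOE LOW. The groups were far apart and each was narrow. The means were 59.3 ± 4.26 FPKM in MOE HIGH and 26.7 ± 1.67 FPKM in MOE LOW, a ratio of 2.22, and the log2 fold change was 1.12 (SE 0.10, limma adjusted p = 5.8e-05).

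Mthfd2, the mitochondrial dehydrogenase and cyclohydrolase, did not pass the test. The locus is on chromosome 6 (83305691 to 83325908, minus strand). Mthfd2 was at 73.6, 64.7 and 75.7 FPKM in MOE HIGH, against 67.5, 50.02 and 46.7 FPKM in MOE LOW. Passage 8 of MOE LOW was above passage 103 of MOE HIGH, while passages 9 and 10 were below every MOE HIGH library. The log2 fold change was 0.39 (95% interval 0.04 to 0.74, limma adjusted p = 0.057). Without passage 8 it was 0.55 and passed (limma adjusted p = 0.013).

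**Figure D2:**
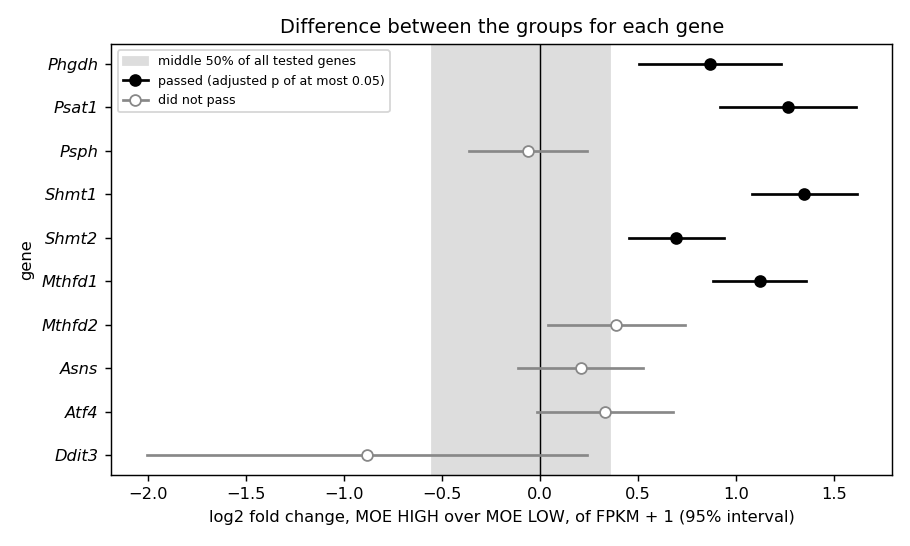
Log2 fold change of FPKM + 1, MOE HIGH over MOE LOW, for each of the 10 genes, with its 95% interval from limma (n = 3 per group). Filled points passed at an adjusted p of 0.05, open points did not, and the grey band spans the middle 50% of all tested genes, from -0.55 to 0.36.

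The balance of mitochondrial and cytosolic enzymes was compared within each library. The ratio of Shmt2 over Shmt1 within a library was 2.57, 2.79 and 2.72 in MOE HIGH, against 5.08, 3.71 and 4.51 in MOE LOW. Mthfd2 over Mthfd1 was 1.17, 1.07 and 1.39 in MOE HIGH, against 2.72, 1.79 and 1.70 in MOE LOW. Both ratios were thus lower in every MOE HIGH library, with a difference of mean log2 ratios of -0.71 for the SHMT pair and -0.75 for the MTHFD pair. Mthfd1l, the mitochondrial formate-producing synthetase, over Mthfd1 was 0.491, 0.462 and 0.564 in MOE HIGH, against 0.765, 0.639 and 0.700 in MOE LOW, a difference of -0.47. Mthfd2l, another mitochondrial dehydrogenase, over Mthfd2 was 0.551, 0.734 and 0.595 in MOE HIGH, against 0.231, 0.335 and 0.338 in MOE LOW, a difference of 1.07. The groups did not overlap in any of these 4 ratios. Each gave p = 0.1 in an exact two-sided permutation test, which is the smallest p that 3 against 3 libraries allow, and adjusted over the 4 pairs it was 0.1.

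**Figure D3:**
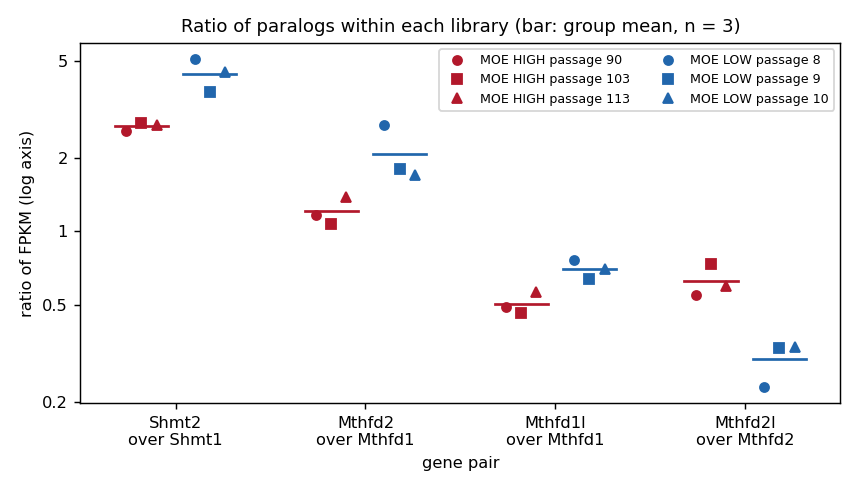
Ratio of the FPKM of related enzymes within each library (log axis), MOE HIGH in red left of MOE LOW in blue, with a bar at each group mean (n = 3). The 3 pairs with Shmt1 or Mthfd1 below the line had lower ratios in MOE HIGH, and Mthfd2l over Mthfd2 had higher ratios.

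Asns, which makes asparagine and is a classical ATF4 target, did not pass. The gene lies on chromosome 6 (7675169 to 7693254, minus strand), and its promoter is the one printed with TGATGAAA in capitals. Asns was at 90.8, 78.4 and 97.9 FPKM in MOE HIGH, against 89.6, 73.7 and 67.9 FPKM in MOE LOW. Passage 8 of MOE LOW was close to passage 90 of MOE HIGH and above passage 103. The log2 fold change was 0.21 (95% interval -0.11 to 0.53, limma adjusted p = 0.23).

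Atf4 was among the 3 most abundant of the 10 genes in both groups. Its locus is on chromosome 15 (80255184 to 80257541, plus strand). Its level was 248.2, 256.3 and 208.2 FPKM in MOE HIGH, against 223.5, 184.6 and 160.0 FPKM in MOE LOW. Passage 8 of MOE LOW was above passage 113 of MOE HIGH. The log2 fold change was 0.33 (95% interval -0.01 to 0.68, limma adjusted p = 0.093). It passed when passage 8 was left out (0.46, limma adjusted p = 0.047) and when passage 113 was left out (0.43, limma adjusted p = 0.033). These values are mRNA levels, and ATF4 protein was not measured in these data.

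Ddit3, which encodes the stress transcription factor CHOP, varied most between libraries of 1 group. The locus is on chromosome 10 (127290774 to 127296288, plus strand) and shares 68 exonic bases with Mars on the opposite strand. Ddit3 was at 15.9, 33.4 and 7.65 FPKM in MOE HIGH, against 48.5, 26.3 and 22.3 FPKM in MOE LOW. The coefficient of variation was 69.2% in MOE HIGH and 43.6% in MOE LOW, and passage 103 of MOE HIGH lay inside the MOE LOW range. The log2 fold change was -0.88 (95% interval -2.00 to 0.24, limma adjusted p = 0.16). Without passage 103 it was -1.38 and passed (limma adjusted p = 0.025).

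By mean level per length, the order in MOE HIGH was Phgdh, Psat1, Atf4, Shmt2, Asns, Mthfd2, Mthfd1, Shmt1, Psph and Ddit3. The ranges of neighbours in that order overlapped for Psat1 and Atf4, for Shmt2 and Asns, and for Psph and Ddit3. In MOE LOW the order was Phgdh, Atf4, Psat1, Asns, Shmt2, Mthfd2, Ddit3, Mthfd1, Psph and Shmt1. There, Phgdh and Atf4 overlapped, as did each pair of neighbours from Shmt2 to Psph. The range of Psat1 thus overlapped that of Atf4 in MOE HIGH and lay below it in MOE LOW.

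Within MOE LOW, 7 of the 10 genes (Psat1, Shmt2, Mthfd2, Psph, Asns, Atf4 and Ddit3) were highest at passage 8, against 38.2% of all tested genes. Psat1 and Shmt2 passed with all libraries, and Mthfd2 and Atf4 passed when passage 8 was left out. Psph, Asns and Ddit3 passed in neither case. The part of passage 8 in which genes passed was not tested. At passage 10, which had the lowest summed FPKM of MOE LOW, 9 of the 10 were lowest, against 38.8% of all tested genes. Scaling the MOE LOW libraries to equal totals, a choice made after seeing the data, left 7 of 10 highest at passage 8, against 25.02% of all tested genes, and 6 of 10 lowest at passage 10, against 18.4%. Among 32 tested genes listed as targets of ATF4 or DDIT3, 29 were highest at passage 8 as deposited and 24 at equal totals.

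Chac1 and Trib3, stress-induced targets named after their values were seen, showed it most. Chac1, a glutathione-degrading enzyme, was at 20.5, 31.9 and 18.9 FPKM in MOE HIGH, against 31.8, 9.05 and 5.98 FPKM in MOE LOW. Trib3, a pseudokinase that represses ATF4, was at 9.87, 16.0 and 13.1 FPKM in MOE HIGH, against 15.2, 6.47 and 5.07 FPKM in MOE LOW. Neither passed the test between groups (limma adjusted p = 0.19 for Chac1 and 0.18 for Trib3). Passage 8 also stood apart in other lists. Within MOE LOW, 10 of 12 proliferation markers were lowest there, against 31.1% of all tested genes. Of the tested smooth muscle markers 7 of 7 were highest there, against 38.2% of all tested genes. The headings of the value columns named the own passage in 0 of 6 tables, so the passage of each library rests on its label.

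**Figure D4:**
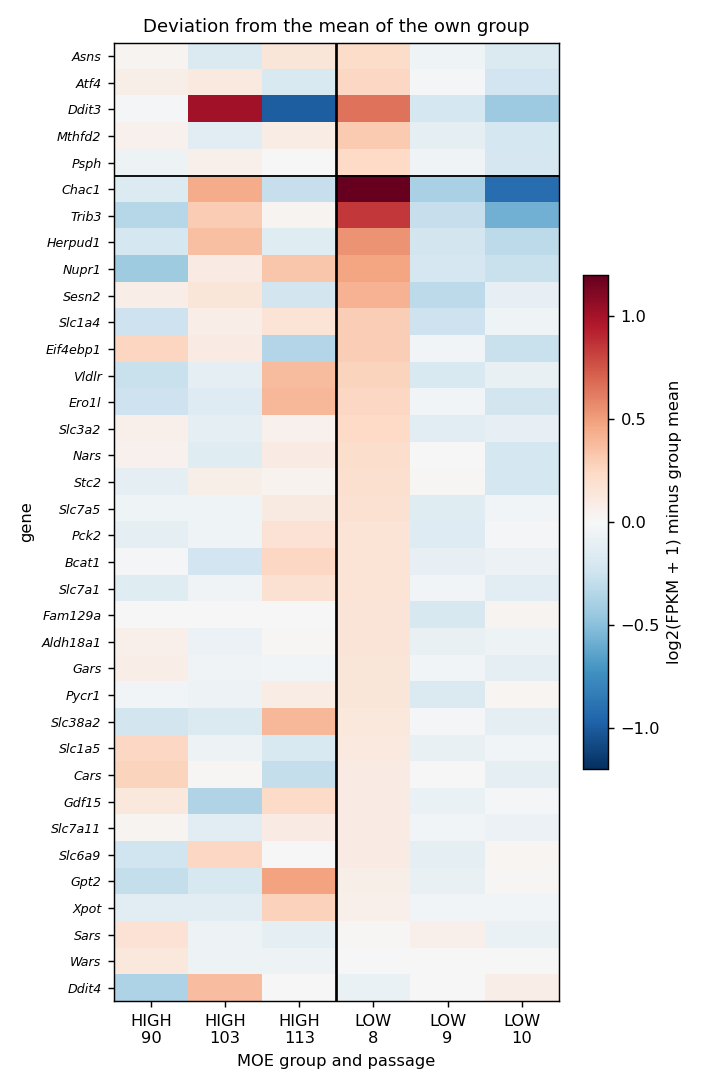
Log2(FPKM + 1) minus the mean of the own group (colour, n = 3 per group) for the 5 genes that did not pass (above the line) and 31 targets of ATF4 or DDIT3, ordered by passage 8, with the MOE HIGH libraries left of the MOE LOW libraries. Passage 8 of MOE LOW is red in most rows and Ddit3 spans the widest range in MOE HIGH; Aars is not drawn because it was listed at 0 in passages 8 and 9.

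The rest of the folate and methionine cycle moved in both directions. Of 24 tested genes out of 29 listed, 10 were higher in MOE HIGH (41.7%), 6 were lower (25%) and 8 did not pass. The shares over all tested genes were 24.3% higher and 32.1% lower. Their median log2 fold change in this list was 0.14. With a minimum mean of 5 FPKM, 10 of the list were higher and 2 were lower. Mthfd2l was at 40.6, 47.5 and 45.1 FPKM in MOE HIGH, against 15.6, 16.7 and 15.8 FPKM in MOE LOW (log2 fold change 1.41, limma adjusted p = 1.6e-05). Ahcy, which clears S-adenosylhomocysteine, averaged 192 ± 14.4 FPKM in MOE HIGH and 100.5 ± 4.07 FPKM in MOE LOW (0.92 on the log2 scale). Fpgs, which adds glutamates to folates, rose by 0.67 on the log2 scale. The genes that fell included Ggh, which removes glutamates from folates (-0.62). Aldh1l2, the mitochondrial formyl-tetrahydrofolate dehydrogenase, named after its values were seen, was at 0.466, 0.381 and 0.276 FPKM in MOE HIGH, against 7.0, 4.49 and 4.95 FPKM in MOE LOW.

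Upstream of ATF4, few genes differed. Of 14 tested kinases and regulators of eIF2-alpha, 1 was higher in MOE HIGH (7.1%), 2 were lower (14.3%) and 11 did not pass (median log2 fold change -0.02). The shares over all tested genes were 24.3% higher and 32.1% lower. Eif2ak3, which encodes PERK, the ER stress kinase, was at 2.66, 3.24 and 3.93 FPKM in MOE HIGH, against 7.59, 7.33 and 9.22 FPKM in MOE LOW (log2 fold change -1.09, limma adjusted p = 0.00048). Impact, an inhibitor of the amino acid sensor GCN2, was lower (-0.37), and Eif2b5, a subunit of the exchange factor eIF2B, was higher (0.43). Eif2ak4, which encodes GCN2, averaged 7.07 ± 0.711 FPKM in MOE HIGH and 7.11 ± 0.318 FPKM in MOE LOW. These counts were small and moved with the scaling and with single libraries: 2 were higher and 1 lower after median ratio scaling or quantile normalization, 1 was higher and 1 lower at equal 75th percentiles or without a filter on low values, 3 were higher and 1 lower without passage 113, 0 were higher and 1 lower without passage 8, and 1 was higher and 1 lower without passage 9.

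Among the bZIP factors that pair with ATF4 or DDIT3, 3 of 8 tested genes were higher in MOE HIGH (37.5%), 2 were lower (25%) and 3 did not pass. The shares over all tested genes were 24.3% higher and 32.1% lower. Cebpb was at 250.9, 314.6 and 159.5 FPKM in MOE HIGH, against 85.7, 65.2 and 56.7 FPKM in MOE LOW (log2 fold change 1.76, limma adjusted p = 0.0007). Cebpg and Nfe2l2, which encodes NRF2, rose by 0.56 and 0.45 on the log2 scale. Cebpd and Atf5 fell, with log2 fold changes of -2.45 and -0.95. Without passage 8 of MOE LOW, and likewise with all libraries scaled to equal totals, 1 of the 8 passed as higher and 2 as lower.

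Of the 32 tested targets of ATF4 and DDIT3, 10 were higher in MOE HIGH (31.2%), 9 were lower (28.1%) and 13 did not pass. These shares were near the 24.3% higher and 32.1% lower of all tested genes, and their median log2 fold change was -0.05, as over all tested genes. The transporters Slc1a5, which carries glutamine, and Slc3a2, the heavy chain of amino acid exchangers, were higher by 1.36 and 0.90 on the log2 scale, and so was Gpt2, the mitochondrial alanine aminotransferase (0.85). Slc1a5 was at 70.2, 56.6 and 51.8 FPKM in MOE HIGH, against 24.5, 21.1 and 21.9 FPKM in MOE LOW. Nupr1, a stress-induced chromatin protein, was at 6.71, 10.2 and 12.1 FPKM in MOE HIGH, against 259, 161 and 154 FPKM in MOE LOW. Gdf15, a secreted stress cytokine, was at 0.402, 0 and 0.510 FPKM in MOE HIGH, against 14.2, 12.4 and 13.0 FPKM in MOE LOW. Stc2, a secreted glycoprotein, and Vldlr, a lipoprotein receptor, had log2 fold changes of -3.05 and -2.37 and were called lower. Aars, the alanyl-tRNA synthetase counted among the higher genes, was at 133, 125 and 113 FPKM in MOE HIGH and at 80.6 FPKM in passage 10 of MOE LOW, and was listed at 0 in passages 8 and 9. The count of higher targets was 5 without passage 103, 5 without passage 9 and 6 without passage 10. The count of lower targets was 8 to 13 when 1 library at a time was left out.

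The ER chaperone genes of the ATF6 and XBP1 branch, another arm of the response to ER stress, were lower or did not pass. Of 20 tested genes, 0 were higher in MOE HIGH, 15 were lower (75%) and 5 did not pass, with a median log2 fold change of -0.52. Over all tested genes 24.3% were higher and 32.1% lower. At an unadjusted limma p under 0.05 also 0 of the 20 were higher. Dnajb9, a target of spliced XBP1, was at 7.08, 8.76 and 7.83 FPKM in MOE HIGH, against 36.4, 25.1 and 27.7 FPKM in MOE LOW (log2 fold change -1.78, limma adjusted p = 4.5e-05). Ern1, which encodes the sensor IRE1, and Dnajc3 and Pdia6, which encode a co-chaperone and a disulfide isomerase, fell, with log2 fold changes of -1.22, -1.10 and -1.07. Leaving out single libraries left 12 to 15 of the 20 lower, and the other scalings left 14 or 15. Against a change of at least 2-fold, 1 of the 20 was lower, beside 7.80% of all tested genes. Within MOE LOW, 16 of the 20 were highest at passage 8 as deposited, against 38.2% of all tested genes. At equal totals 3 of the 20 were, against 25.02%. The difference between this list and the 10 genes was not tested.

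**Figure D5:**
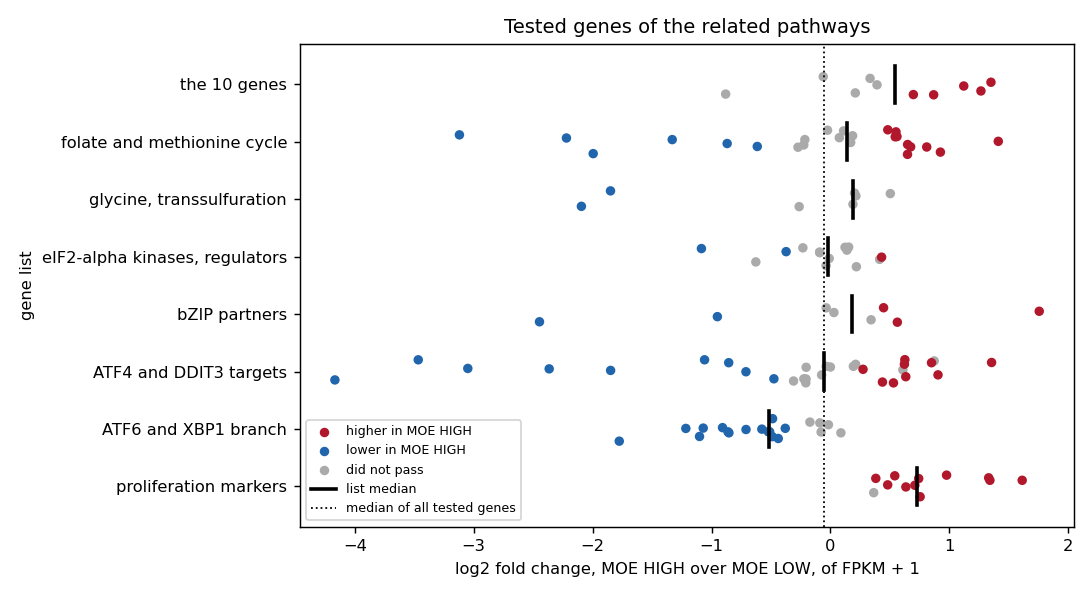
Log2 fold change of FPKM + 1, MOE HIGH over MOE LOW, for each tested gene of 8 lists (red higher, blue lower, grey did not pass, limma), with the median of each list as a bar and that of all tested genes, -0.05, as a dotted line. The ATF4 and DDIT3 targets spread to both sides, the ATF6 and XBP1 list lies to the left, and Aars is not drawn because it was listed at 0 in 2 libraries.

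Markers of proliferation were also higher in MOE HIGH. Of 12 tested, 11 were higher in MOE HIGH (91.7%, beside 24.3% of all tested genes), 0 were lower and 1 did not pass. Their median log2 fold change was 0.73, and their summed level was 1619 to 1641 FPKM in MOE HIGH and 832.2 to 929.8 FPKM in MOE LOW. Against a change of at least 2-fold, 1 of the 12 was higher, beside 2.61% of all tested genes. At equal totals 9 of the 12 were higher. Mcm5, Pcna, Mcm3 and Mcm2, which act in DNA replication, rose by 1.61, 1.34, 1.33 and 0.98 on the log2 scale. The genes whose values over the 6 libraries lay nearest to those of Shmt1, by Euclidean distance between centred log2 values among 8324 other genes averaging 5 FPKM or more, were Sord (0.112), Mcm3 (0.148) and E2f4 (0.155). Among the 10 genes themselves, the nearest pairs were Mthfd2 with Asns (0.26) and Shmt1 with Mthfd1 (0.35). The part of proliferation in the levels of the 10 genes was not tested.

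Some markers of other cell types differed between the groups as well. Beside the counts that follow, 24.3% of all tested genes were higher in MOE HIGH and 32.1% were lower. The 7 tested smooth muscle markers were all lower in MOE HIGH, with a summed level of 9.74 to 18.6 FPKM in MOE HIGH and 8241 to 12054 FPKM in MOE LOW, and Acta2 averaged 5.74 ± 1.53 FPKM in MOE HIGH and 4395 ± 650.1 FPKM in MOE LOW. Of 7 tested fibroblast markers 6 were lower in MOE HIGH, with a summed level of 22.4 to 32.7 FPKM in MOE HIGH and 596.3 to 987.8 FPKM in MOE LOW. Of the epithelial and secretory markers, 2 of 6 tested were higher in MOE HIGH and 0 lower. This list summed to 2094 to 3259 FPKM in MOE HIGH and 1500 to 1878 FPKM in MOE LOW. Krt18, called higher, averaged 2029 ± 531 FPKM in MOE HIGH and 798 ± 25.3 FPKM in MOE LOW. Krt19, which did not pass, averaged 663 ± 165 FPKM in MOE HIGH and 850 ± 201 FPKM in MOE LOW. Pax8 was at 41.0 to 48.8 FPKM in MOE HIGH and 44.4 to 54.4 FPKM in MOE LOW. Epcam and Cdh1 were at or near 0 in all 6 libraries. Of 4 tested ciliated cell markers, Foxj1 was higher in MOE HIGH (2.29, 3.51 and 2.57 FPKM, against 0.530, 0.338 and 0.450 FPKM in MOE LOW), Rsph1 was lower (listed at 0 in every MOE HIGH library, against 3.75, 2.09 and 1.90 FPKM in MOE LOW), 2 did not pass, and the list summed to 5.63 to 6.23 FPKM in MOE HIGH and 4.99 to 7.40 FPKM in MOE LOW. Of 2 tested leukocyte markers and 1 tested endothelial marker, 1 each was lower in MOE HIGH, and the defining genes Ptprc and Pecam1 were at or near 0. In bulk samples a smaller share of cells of a type and less RNA per cell cannot be told apart, and the part of these cell types in the levels of the 10 genes was not tested. The summed FPKM was 770709, 720500 and 597486 in MOE HIGH, against 684209, 678430 and 625095 in MOE LOW, and the number of reads behind each library is unknown.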

How the data were processed

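The authors prepared strand-specific libraries from RNA depleted of ribosomal RNA, used TopHat2 2.0.8b for alignment (mm10) and Cufflinks with Cuffdiff 2.1.1 for quantification against UCSC gene models, and deposited FPKM in a separate table for every library. FPKM keep no read counts, so depth is unknown and no counting interval is given. Of 23141 entries in a table, 577 carried 236 repeated symbols, none of them 1 of the 10 genes; for these the highest 6-library mean decided which was kept. Groups came from the labels.

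MOE HIGH was compared with MOE LOW by limma 3.58.1 in R 4.3.3, with a variance trend and no block, on log2(FPKM + 1). Genes needed a mean of at least 0.5 FPKM, and p-values were adjusted by Benjamini-Hochberg over all tested genes at 0.05. Fold changes on this scale understate the change of low genes. Paralog ratios used FPKM without a pseudocount and an exact permutation test. The steps were tested on simulated data.

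The 10 genes and all lists were chosen with earlier results of these data known. The named genes were the 10, up to 4 called genes per direction of each other list by absolute log2 fold change, if they averaged 5 FPKM or more and the groups were apart, any gene of a list of at most 15, and the 3 genes nearest to Shmt1 in pattern. Aldh1l2, Chac1 and Trib3 were named outside it, after their values were seen, and some genes that the rule names are not reported here. Gene positions came from GENCODE and promoters from RefSeq (GRCm38.p6). Alternatives were other pseudocounts, filters, scalings and thresholds, no variance trend, summed entries, blocking on replicate number, and omission of single libraries.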

Additional observations from a re-analysis of the deposited data

How the results depend on the processing

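The 5 genes called higher kept direction and call under every alternative run, except the test against a 2-fold change. There, 0 of the 10 genes passed, with unchanged log2 fold changes of 0.87 for Phgdh, 1.27 for Psat1, 1.35 for Shmt1 (limma adjusted p = 0.077), 0.70 for Shmt2 and 1.12 for Mthfd1, and 303 of all tested genes were higher and 907 lower. Over all other alternatives Phgdh ranged from 0.76 to 1.002, Psat1 from 1.14 to 1.37, Shmt1 from 1.29 to 1.44, Shmt2 from 0.63 to 0.77 and Mthfd1 from 1.06 to 1.19. With a minimum mean of 5 FPKM, which tests fewer genes, 2350 were lower.

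Mthfd2 passed after median ratio scaling (0.46, limma adjusted p = 0.031), equal 75th percentiles (0.42, 0.037) and quantile normalization (0.40, 0.042), and Atf4 after quantile normalization (0.38, 0.015). The cause was not tested. The scalings set the median log2 fold change of all tested genes at -0.11 (equal totals), -0.02 (75th percentiles), 0.0048 (median ratio) and 0.10 (quantile), beside -0.05 as deposited. Psph turned to 0.0030 after median ratio scaling, and to 0.060 when passage 8 was left out, without passing.

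Leaving out 1 library at a time gave 0.29 to 0.55 for Mthfd2, 0.22 to 0.46 for Atf4, 0.12 to 0.32 for Asns, -0.16 to 0.06 for Psph and -1.38 to -0.39 for Ddit3. It left 5 to 7 of the 10 genes higher and 0 to 1 lower (Ddit3, without passage 103). Over all tested genes it left 2212 to 3318 higher and 3030 to 4378 lower.

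The deviations of same-numbered libraries from their group means correlated at -0.02, -0.15 and 0.12. With 3 libraries a group, these correlations cannot show whether the numbers paired the libraries. With the replicate block Mthfd2 (0.39, limma adjusted p = 0.032), Atf4 (0.33, 0.037) and Ddit3 (-0.88, 0.043) passed, which made 7 genes higher and 1 lower. The block called 2967 of all tested genes higher and 3839 lower. Not every library correlated best with its own number.

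With 3 libraries a group, wide intervals such as that of Ddit3 cannot show whether a difference is absent. The 10 genes rest on FPKM as the authors scaled them, whether overlapping genes were separated by strand in the counting was not stated, and passages of 1 line are not independent animals.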

Other observations

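Of 7 tested genes out of 15 listed for glycine cleavage, serine breakdown and transsulfuration, 0 were higher in MOE HIGH, 2 were lower (28.6%, beside 32.1% of all tested genes) and 5 did not pass, with a median log2 fold change of 0.19; without passage 113, 4 were lower. Cth, which makes cysteine from cystathionine, was at 0, 0.0263 and 0 FPKM in MOE HIGH, against 4.31, 3.29 and 2.51 FPKM in MOE LOW. Sardh, the mitochondrial sarcosine dehydrogenase, was at 1.47, 2.19 and 1.2 FPKM in MOE HIGH, against 8.93, 7.70 and 8.41 FPKM in MOE LOW, and fell by 1.85 on the log2 scale (limma adjusted p = 3.7e-05). Gcsh and Dld, which encode parts of the mitochondrial glycine cleavage system, were at 68.4, 60.1 and 59.2 FPKM for Gcsh in MOE HIGH, against 59.0, 54.8 and 47.9 FPKM in MOE LOW, and at 65.1, 64.6 and 76.0 FPKM for Dld in MOE HIGH, against 59.4, 62.6 and 57.7 FPKM in MOE LOW. The groups did not overlap for either gene, as in 64.0% of all tested genes, and neither passed (limma adjusted p = 0.15 for Gcsh and 0.16 for Dld). Amt and Gldc, which encode other parts of that system, leaned the other way. Amt averaged 1.34 FPKM in MOE HIGH and 1.80 FPKM in MOE LOW, again without overlap, and did not pass (limma adjusted p = 0.094). Gldc averaged 0.15 FPKM in MOE HIGH and 0.76 FPKM in MOE LOW and was below the filter.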
